A study of Homo sapiens with 25 samples.

Results

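PITRM1, EPHA5, HIPK2, PLCB1 and GOLM2 are 5 of the 59427 gene names measured by RNA sequencing in A549 and NCI-H460 cells, and were chosen by their fall with 1 antisense oligonucleotide (ASO), candidate 42 ASO3, against the control ASO in at least 1 of the lines. That fall is therefore how the genes were chosen, and it is given below as a description with no test. What the choice did not fix is whether the second ASO against the same target moves each gene, and whether ASOs against another RNA do. The name of the group held in part: all 5 genes were lower with candidate 42 ASO3 in NCI-H460, while in A549 PITRM1 and HIPK2 were lower, GOLM2 was at 92.3% of control, and EPHA5 and PLCB1 stood under the expression limit.

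Both are established human lung cancer lines, A549 from an adenocarcinoma and NCI-H460 from a large cell carcinoma. ASOs are synthetic strands that base-pair with a chosen RNA, which the cell then cleaves. Each line had 5 groups, transfected for 24 h with 25 nM of candidate 42 ASO3, candidate 42 ASO5, candidate 240 ASO1, candidate 240 ASO3 or the neutral control ASO from Qiagen called Control A, so the control cells were transfected with an oligonucleotide too. Candidates 42 and 240 are long noncoding RNAs, and the labels do not name the gene of either. AC107959.3 was taken for candidate 42 from its place and from its low level with ASO3 in these libraries, so that level is no check of the ASO. Each A549 group had 3 libraries (replicates 3, 4 and 5) and each NCI-H460 group 2 (replicates 1 and 2). No label tells whether these come from separate cultures, so p-values measure only the spread between libraries.

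The 5 genes have separate jobs. PITRM1 encodes presequence protease, a zinc peptidase of the mitochondrial matrix that degrades the targeting peptides cut from imported proteins. EPHA5 encodes a receptor tyrosine kinase that binds ephrin-A ligands on neighbouring cells and is best known from the nervous system. HIPK2 encodes a nuclear kinase that acts with transcriptional corepressors. PLCB1 encodes a phospholipase C that G proteins of the Gq class activate and that releases inositol trisphosphate and diacylglycerol, the signals for calcium release and protein kinase C. GOLM2, also known as CASC4, encodes a Golgi membrane protein related to GOLM1.

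On hg38, as the authors' tables place them, PITRM1 lies at chr10:3137728-3172841 on the minus strand, EPHA5 at chr4:65319563-65670495 on the minus strand and HIPK2 at chr7:139561570-139777998 on the minus strand. PLCB1 lies at chr20:8077251-8968360 and GOLM2 at chr15:44288719-44415758, both on the plus strand. They lie on 5 chromosomes, and none shares one with AC107959.3. PITRM1 spans 35114 bp, close to the median span of 28562 bp over the genes tested in NCI-H460 that have a position. GOLM2 (127040 bp), HIPK2 (216429 bp), EPHA5 (350933 bp) and PLCB1 (891110 bp) are longer, and 12.7%, 5.71%, 2.33% and 0.296% of those tested genes are at least as long.

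Of the 5 genes, PITRM1 had the lowest log2 fold change with candidate 42 ASO3 in A549 and EPHA5 in NCI-H460. The promoter windows of these 2 genes are shown, as no other of the 5 was matched to a window. They are RefSeq sequences of GRCh38.p14, from 250 bases before to 50 bases after the start of transcription. The PITRM1 window is chr10:3172792-3173091 and the EPHA5 window chr4:65670440-65670739, both read on the minus strand. Capitals mark matches to GGGCGG on either strand and to CCAAT on either strand.
PITRM1: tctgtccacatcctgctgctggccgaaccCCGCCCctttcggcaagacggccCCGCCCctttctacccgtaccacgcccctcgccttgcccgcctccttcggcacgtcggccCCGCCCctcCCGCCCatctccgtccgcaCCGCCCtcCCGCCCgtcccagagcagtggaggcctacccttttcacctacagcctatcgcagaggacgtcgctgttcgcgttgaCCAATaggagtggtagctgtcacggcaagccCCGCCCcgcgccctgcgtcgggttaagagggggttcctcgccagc
EPHA5: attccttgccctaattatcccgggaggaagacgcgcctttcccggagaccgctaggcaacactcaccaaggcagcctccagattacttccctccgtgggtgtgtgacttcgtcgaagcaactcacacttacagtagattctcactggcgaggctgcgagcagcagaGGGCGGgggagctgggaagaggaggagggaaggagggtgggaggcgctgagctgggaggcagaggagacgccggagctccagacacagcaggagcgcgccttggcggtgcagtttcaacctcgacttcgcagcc
The PITRM1 window held 7 matches to GGGCGG, all on the strand opposite to the gene, and 1 to CCAAT, beginning 26 bases before the start. Its GC content was 69% with 31 CpG dinucleotides. The EPHA5 window held 1 match to GGGCGG, beginning 84 bases before the start, with a GC content of 61.7% and 19 CpG dinucleotides. Over all 35116 windows of this length, 45% held GGGCGG, 34.6% held CCAAT and 11.5% held TATAAA on either strand, and the median was 58.7% GC and 14 CpG dinucleotides. TATAAA was in neither of the PITRM1 and EPHA5 windows. HIPK2, PLCB1 and GOLM2 were not matched to a window. The EPHA5 window lies within the span of EPHA5-AS1 (chr4:65669961-65698029, plus strand), a noncoding gene whose values are given below.

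Levels are transcripts per 1e6 (TPM), which the authors had rescaled between libraries: the sums per library ran from 924350 to 1179224. TPM keeps no read number, so the depth is unknown. Between 23879 and 27731 gene names were above 0 in a library. The lowest number was that of NCI-H460 candidate 42 ASO3 replicate 1, whose sum of 1173905 was also the highest in NCI-H460. Replicate 2, the other library of that group, had 25778 names above 0 and a sum of 995817. KRT8 and KRT18, keratins of simple epithelia, were high in all 25 libraries (552 to 4400 TPM). EPCAM and CDH1, 2 further epithelial genes, were low in NCI-H460 (at most 0.929 and 0.403 TPM). Of 10 markers of blood, endothelial and connective tissue cells, CD3E was listed at 0 in all libraries and PTPRC reached at most 0.0158 TPM, while CD14 stood at 6.7 to 29.2 TPM. The collagen gene COL1A1 stood at 2.57 to 9.62 TPM in A549 and 1.43 to 3.2 TPM in NCI-H460. COL3A1 stood at 2.09 to 4.12 TPM in NCI-H460 and reached at most 0.235 TPM in A549. AC107959.3 averaged 0.65 TPM with candidate 42 ASO3 and 3.42 TPM with ASO5, against 7.61 TPM with the control ASO in A549 (8.55% and 45% of control). In NCI-H460 it averaged 0.529 and 1.67 TPM, against 1.75 TPM (30.3% and 95.5%). Its ASO5 changes were not called in A549 (-1.03, SE 0.37, adjusted p = 0.166) or in NCI-H460 (-0.01, SE 0.34, adjusted p = 0.995), so a loss of AC107959.3 with ASO5 was not shown in either line. With candidate 240 ASO3 it stood at 190% of control in A549 and at 340% in NCI-H460. With candidate 240 ASO1 it stood at 80.7% and 252%. The NCI-H460 control libraries were low, at 1.16 and 2.33 TPM. In A549 the replicate 3 libraries stood apart: their deviations from the group means correlated at 0.261 to 0.564 between groups, against 0.021 to 0.304 for replicates 4 and 5. HIPK2 and GOLM2 were lower in replicate 3 than in replicates 4 and 5 in the candidate 240 and control groups, so A549 values are also given without them. In NCI-H460, 46% of all 13774 genes tested were called with candidate 42 ASO3, against 10.1% of 14740 in A549. In bulk RNA, fewer cells of a kind and less RNA per cell cannot be told apart.

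Fold changes are differences of log2(TPM + 0.5) with their standard errors (SE), fitted with limma over all genes with a line mean of at least 1 TPM, and a gene was called at a Benjamini-Hochberg adjusted p under 0.05. PITRM1, HIPK2 and GOLM2 passed that limit in both lines. EPHA5 (line mean 0.133 TPM) and PLCB1 (0.896 TPM) fell short of it in A549 and passed in NCI-H460, where their line means were 7.55 and 17 TPM. Hence 3 members entered the A549 tests and 5 the NCI-H460 tests.

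**Figure D1:**
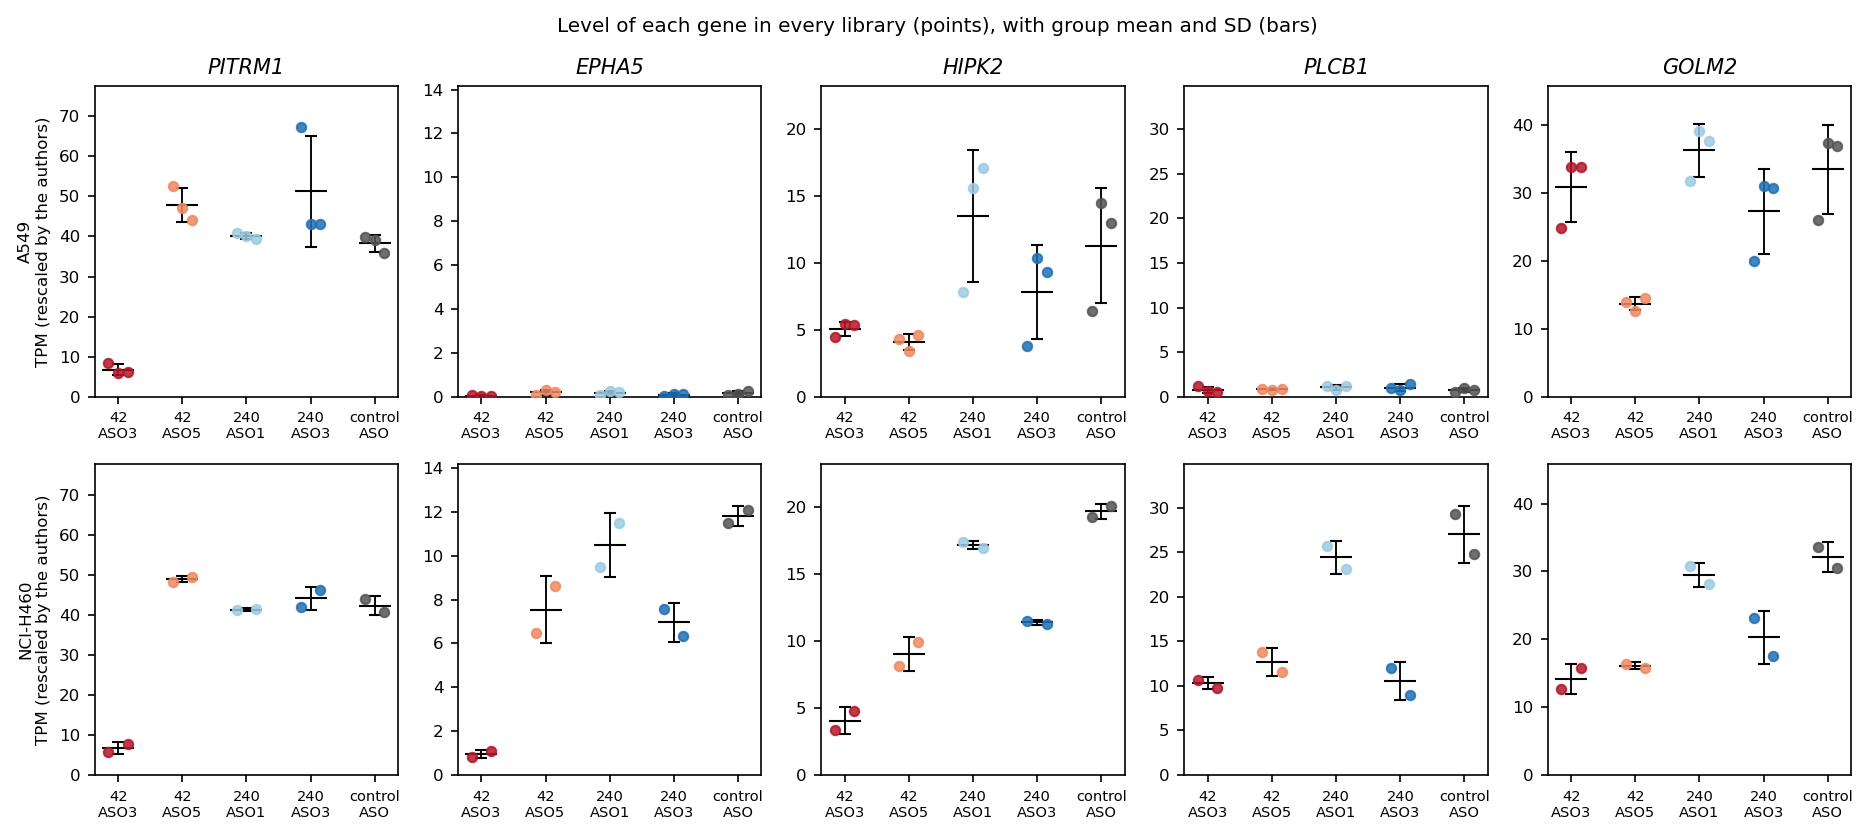
Level in TPM (linear axes from 0, shared by the lines for each gene) of the 5 genes in A549 (top, 3 libraries per group) and NCI-H460 (bottom, 2 libraries per group). Points are libraries, and bars the group mean and SD; with candidate 42 ASO3, PITRM1 averaged 6.79 TPM in A549 and 6.72 TPM in NCI-H460, under every other group of its line, and EPHA5 and PLCB1 are near 0 throughout A549.

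PITRM1 was low in both lines with candidate 42 ASO3, at a like share of control. In A549 it stood at 8.31, 5.81 and 6.25 TPM in the candidate 42 ASO3 libraries, against 39.8, 39.2 and 35.9 TPM in the control libraries. In NCI-H460 it stood at 5.66 and 7.77 TPM, against 44 and 40.7 TPM in the control libraries. No ASO3 library came near a control library, and the group means were 17.7% and 15.9% of control. The log2 fold changes were -2.43 (SE 0.16) in A549, position 13 from the lowest of 14740 genes, and -2.58 (SE 0.14) in NCI-H460, position 45 of 13774. Without the replicate 3 libraries the A549 value was -2.54 (SE 0.08).

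With the other 3 ASOs, PITRM1 averaged at least 97.6% of control in each line. With candidate 42 ASO5 it stood at 52.6, 47 and 44.1 TPM in A549 and at 48.3 and 49.5 TPM in NCI-H460, above every control library of its line. The differences from control, 0.32 (SE 0.16, adjusted p = 0.369) and 0.21 (SE 0.14, adjusted p = 0.508), did not pass the test. Higher values in every library were thus no call. In A549 without the replicate 3 libraries the difference was 0.28 (SE 0.08) and passed it narrowly (adjusted p = 0.0497). The ASO5 minus ASO3 difference was 2.74 (SE 0.16) in A549 and 2.79 (SE 0.14) in NCI-H460, given as values since ASO3 chose the gene. With candidate 240 ASO1 it averaged 40.2 ± 0.79 TPM in A549 (SD, n = 3) and 41.3 ± 0.299 TPM in NCI-H460 (SD, n = 2), which is 105% and 97.6% of control. With candidate 240 ASO3 it stood at 67.4, 43.2 and 43.2 TPM in A549, above all controls (0.38, SE 0.16, adjusted p = 0.146). Replicate numbers were taken from the data as pairs of these A549 libraries, and with the replicate block PITRM1 was called higher (0.38, SE 0.12, adjusted p = 0.03). In the order of its 10 group means, the A549 control group (38.3 TPM) and the 2 ASO3 groups (6.79 and 6.72 TPM) were separated by a gap, and 7 of the 9 pairs of neighbours in the order overlapped in their ranges.

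EPHA5 was expressed in NCI-H460 and close to 0 in A549. In NCI-H460 it stood at 0.838 and 1.1 TPM with candidate 42 ASO3, against 11.5 and 12.1 TPM with the control ASO. That is 8.2% of control, with a log2 fold change of -3.07 (SE 0.18), position 21 from the lowest of 13774 genes. As the value with ASO3 is near the pseudocount, the fold depends on it: the change was -3.49 with a pseudocount of 0.1 and -2.70 with 1. In A549 all 15 libraries lay between 0.0131 and 0.321 TPM, with group means of 0.0513 TPM for candidate 42 ASO3 and 0.151 TPM for the control ASO, so no change could be read there.

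With candidate 42 ASO5, EPHA5 stood at 6.46 and 8.62 TPM in NCI-H460, below both controls and above both ASO3 libraries. At 63.9% of control it did not pass the test (-0.63, SE 0.18, adjusted p = 0.171). With candidate 240 ASO3 it was at 7.59 and 6.32 TPM, or 58.9% of control, also short of the threshold (-0.73, SE 0.18, adjusted p = 0.0528), which it passed with a pseudocount of 1 (adjusted p = 0.0471). With candidate 240 ASO1 it was at 9.47 and 11.5 TPM, and overlapped the control range (adjusted p = 0.927). The ranges of the ASO5 and candidate 240 ASO3 groups overlapped each other, while the candidate 42 ASO3 range overlapped no other group.

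EPHA5-AS1 starts on the opposite strand beside EPHA5 and overlaps its start. In NCI-H460 it stood at 5.12 and 3.75 TPM with candidate 42 ASO3, against 9.08 and 9.28 TPM with the control ASO (48.3% of control, log2 fold change -0.99, SE 0.19). As EPHA5-AS1 overlaps a gene chosen on that contrast, this fall is given with no test. It stood at 70.1% of control with ASO5 (-0.48, SE 0.19, limma adjusted p = 0.273). Whether the counting used strand is not given, so reads of the overlap of EPHA5 and EPHA5-AS1 cannot be told apart. PITRM1-AS1, antisense to PITRM1, averaged at most 1.14 TPM in any group, and PLCB1-IT1 was listed at 0 in every library.

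HIPK2 stood below control with both candidate 42 ASOs in both lines, and its A549 values depended on replicate 3. In NCI-H460 it stood at 3.34 and 4.76 TPM with ASO3 and at 8.18 and 9.95 TPM with ASO5, against 19.3 and 20.1 TPM with the control ASO. The 3 groups did not overlap, at 20.5% and 46% of control for ASO3 and ASO5. The ASO3 change was -2.17 (SE 0.16), position 105 of 13774. The ASO5 change of -1.09 (SE 0.16) passed the test (adjusted p = 0.0316). In A549 it stood at 4.48, 5.42 and 5.35 TPM with ASO3 and at 4.28, 3.44 and 4.61 TPM with ASO5, against 6.43, 14.5 and 13 TPM with the control ASO. Both ASO groups lay below all 3 controls, at 44.9% and 36.3% of the control mean, but the lowest control, replicate 3, was close to them.

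The A549 ASO3 change of HIPK2 was -1.01 (SE 0.37), or -1.27 (SE 0.14) without the replicate 3 libraries. The ASO5 change was -1.29 (SE 0.37) and did not pass the test (adjusted p = 0.0764), and without the replicate 3 libraries it was -1.67 (SE 0.14) and passed (adjusted p = 0.000459). Leaving out control replicate 3 alone gave -1.64 and a call (adjusted p = 0.0324). With the candidate 240 ASOs, too, replicate 3 was the lowest library of each A549 group: HIPK2 was at 7.85, 15.6 and 17.1 TPM with ASO1 and at 3.78, 10.4 and 9.34 TPM with ASO3. Neither candidate 240 ASO passed the test in A549 (0.25 and -0.54, SE 0.37 each, adjusted p = 1 and 0.398). Without the replicate 3 libraries HIPK2 was called lower with candidate 240 ASO3 (-0.46, SE 0.14, adjusted p = 0.0416). In NCI-H460, HIPK2 was at 11.5 and 11.3 TPM with candidate 240 ASO3 and was called lower (57.7% of control, -0.77, SE 0.16, adjusted p = 0.0283), and at 17.4 and 17 TPM with ASO1 it was not (-0.19, adjusted p = 0.927). In the order of the 10 HIPK2 group means, from 19.7 TPM (NCI-H460 control ASO) to 4.05 TPM (NCI-H460 candidate 42 ASO3), every group but the first overlapped its next neighbour in range.

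PLCB1 was well above the expression limit in NCI-H460 alone. There it stood at 10.7 and 9.8 TPM with candidate 42 ASO3 and at 13.8 and 11.6 TPM with ASO5, against 29.3 and 24.8 TPM with the control ASO. The ASO libraries lay at 38% and 47% of the control mean, and neither group reached a control library. The ASO3 change was -1.35 (SE 0.16), position 671 of 13774, and the ASO5 change of -1.06 (SE 0.16) passed the test (adjusted p = 0.0346). An ASO against the other candidate gave a like level: with candidate 240 ASO3, PLCB1 stood at 12 and 8.99 TPM, 38.8% of control, and was called lower (-1.33, SE 0.16, adjusted p = 0.0041). With candidate 240 ASO1 it stood at 25.7 and 23.1 TPM and was not called (-0.14, SE 0.16, adjusted p = 0.927). The ranges of ASO5 and candidate 240 ASO3, and those of candidate 240 ASO3 and candidate 42 ASO3, overlapped. In A549 the 15 libraries lay between 0.535 and 1.42 TPM, with group means from 0.772 TPM (control ASO) to 1.06 TPM (candidate 240 ASO1) and overlapping ranges.

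GOLM2 parted the candidate 42 ASOs in A549. It stood at 24.9, 33.9 and 33.9 TPM with ASO3 and at 14, 12.6 and 14.5 TPM with ASO5, against 26, 37.4 and 37 TPM with the control ASO. The ASO3 libraries overlapped the controls (92.3% of control, -0.11, SE 0.19), while all ASO5 libraries lay below all controls (40.9%). The ASO5 change was -1.24 (SE 0.19) and passed the test (adjusted p = 0.00253). In NCI-H460 it stood at 12.7 and 15.8 TPM with ASO3 and at 16.4 and 15.7 TPM with ASO5, against 33.6 and 30.5 TPM with the control ASO. Here the ASO ranges overlapped each other and lay well below control, at 44.4% and 50.1%. The ASO3 change was -1.15 (SE 0.15), position 1130 of 13774, and the ASO5 change of -0.97 (SE 0.15) passed the test (adjusted p = 0.039). With candidate 240 ASO3, GOLM2 stood at 23.1 and 17.5 TPM in NCI-H460 and was called lower (63.2% of control, -0.66, SE 0.15, adjusted p = 0.0422). In A549 it stood at 20, 31.1 and 30.7 TPM with candidate 240 ASO3 and overlapped the controls (-0.30, SE 0.19, adjusted p = 0.355); without the replicate 3 libraries it was called lower there (-0.26, SE 0.08, adjusted p = 0.0402). With candidate 240 ASO1 it averaged 36.3 TPM in A549 and 29.5 TPM in NCI-H460, 108% and 91.9% of control. Its 10 group means ran from 36.3 TPM to 13.7 TPM (A549 candidate 42 ASO5), and the 1 gap between neighbours' ranges lay between NCI-H460 candidate 240 ASO3 (20.3 TPM) and NCI-H460 candidate 42 ASO5 (16.1 TPM).

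**Figure D2:**
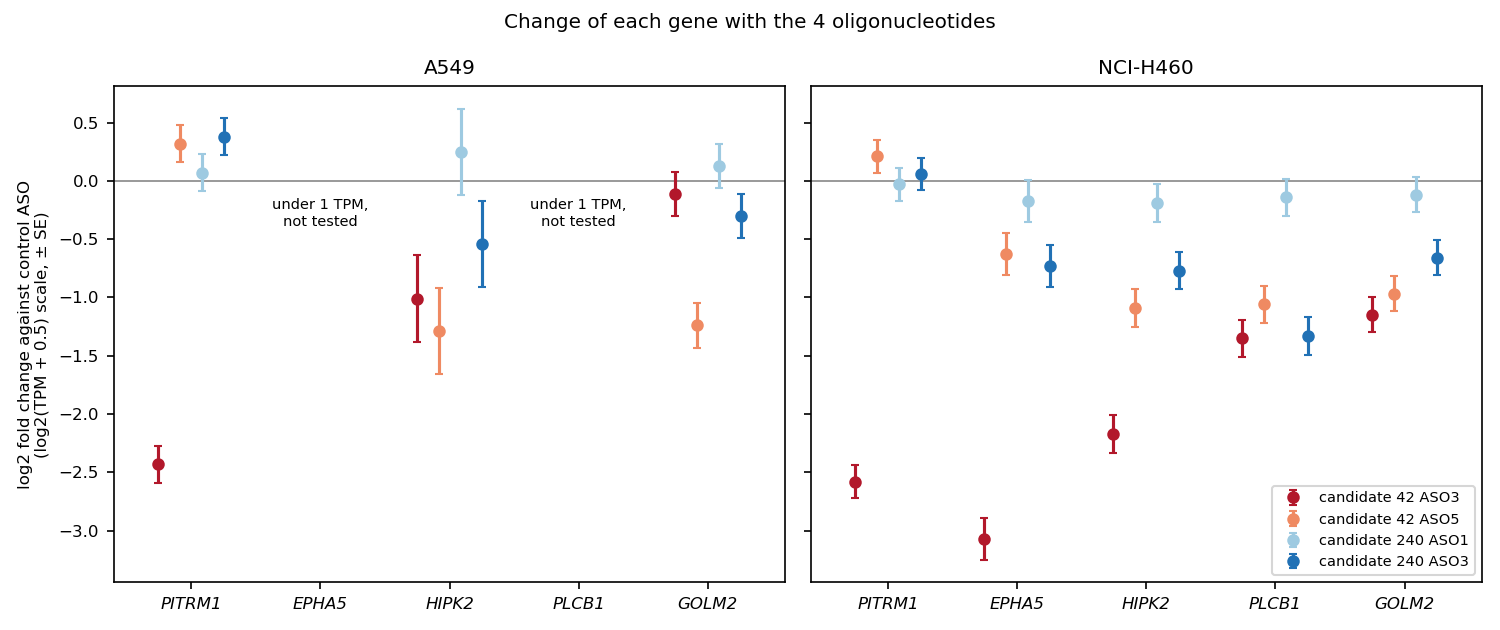
Fitted log2 fold change against the control ASO of its line (points, on the log2(TPM + 0.5) scale) with its SE (bars) for the 4 ASOs, in A549 (left) and NCI-H460 (right). PITRM1 is low with candidate 42 ASO3 alone (-2.43 and -2.58), while PLCB1 in NCI-H460 is low with candidate 42 ASO3 (-1.35), candidate 42 ASO5 (-1.06) and candidate 240 ASO3 (-1.33).

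Candidate 42 ASO5 thus gave calls for a part of the genes, in the main NCI-H460 fit against the control ASO alone. Against the control ASO, limma called 1 of 3 members lower in A549 (GOLM2), where 2.4% of all genes were called lower, and 3 of 5 in NCI-H460 (HIPK2, PLCB1 and GOLM2), where 0.327% were. None of the 5 was called higher, against 1.42% and 0.182% of all genes. Every ASO5 library lay below every control for 2 of 3 members in A549 (HIPK2 and GOLM2) and for 4 of 5 in NCI-H460 (all but PITRM1), as it did for 10.6% and 25.4% of all genes, and above every control for PITRM1, as for 11.6% and 29.1%. This contrast shares its control libraries with the one that chose the genes, so its member counts are in part tied to that choice. Set against candidate 240 ASO1 instead, whose libraries the choice did not use, ASO5 was lower for 2 of 3 members in A549, HIPK2 (-1.54, SE 0.37, adjusted p = 0.0345) and GOLM2 (-1.37, SE 0.19, adjusted p = 0.00132), where 2.39% of all genes were called lower. HIPK2 averaged 4.11 ± 0.603 TPM with ASO5 and 13.5 ± 4.96 TPM with candidate 240 ASO1 (SD, n = 3 each), and GOLM2 13.7 ± 0.993 and 36.3 ± 3.92 TPM. These libraries were taken from the data as pairs by replicate number, as no label says what the numbers mark. Under the replicate block limma called both genes (adjusted p = 0.0028 for HIPK2), beside 1585 of all genes in place of 555. The HIPK2 call was lost without any 1 of ASO5 replicates 3, 4 and 5 or candidate 240 ASO1 replicates 4 and 5, with changes of -1.34 to -1.62 and adjusted p of 0.0869 to 0.15.

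In NCI-H460 0 of 5 members passed the test of ASO5 against candidate 240 ASO1, where limma called 35 of 13774 genes (0.254%, with 1551 at an unadjusted p under 0.05). HIPK2, PLCB1 and GOLM2 came closest, at -0.89, -0.92 and -0.85 (SE 0.16, 0.16 and 0.15) with adjusted p of 0.0764, 0.07 and 0.0764. Both ASO5 libraries lay below both candidate 240 ASO1 libraries for these 3 genes and for EPHA5 (-0.46, adjusted p = 0.384), as 21.2% of all genes did. The 3 calls of ASO5 against control were lost whenever 1 of the 4 libraries was left out, which leaves 1 library in a group. PITRM1 was higher with ASO5 than with candidate 240 ASO1 by 0.25 (SE 0.16) in A549 and 0.24 (SE 0.14) in NCI-H460, which did not pass the test.

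Of the ASOs against candidate 240, ASO3 gave calls among the members against control and ASO1 none. With candidate 240 ASO1, 0 of 3 members in A549 and 0 of 5 in NCI-H460 were called by limma, and 0% of all genes were called in either line (267 and 493 genes had an unadjusted p under 0.05). With candidate 240 ASO3, 0 of 3 were called in A549, where 13.8% of all genes were, and 3 of 5 were called lower in NCI-H460 (HIPK2, PLCB1 and GOLM2), where 3.01% were. Both NCI-H460 libraries lay below both controls for these 3 and EPHA5, as for 32.5% of all genes. These comparisons use the control libraries with which the genes were chosen. With the replicate block the A549 count was 1, PITRM1 higher, and 3696 of all genes were called in place of 2036. Without control replicate 1, control replicate 2 or candidate 240 ASO3 replicate 2 the NCI-H460 count was 1.

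Set against candidate 240 ASO1 instead, whose libraries had no part in the choice, candidate 240 ASO3 was called lower in NCI-H460 for 1 of 5 members, PLCB1, where 1.88% of all genes were called lower. PLCB1 was at 12 and 8.99 TPM with candidate 240 ASO3, against 25.7 and 23.1 TPM with candidate 240 ASO1 (-1.19, SE 0.16, adjusted p = 0.00718). That call was lost without candidate 240 ASO1 replicate 1 (-1.12, adjusted p = 0.077) or 2 (-1.27, adjusted p = 0.0557) and without candidate 240 ASO3 replicate 2 (-0.99, adjusted p = 0.0623). HIPK2 (-0.57, SE 0.16, adjusted p = 0.107) and GOLM2 (-0.54, SE 0.15, adjusted p = 0.11), called against control, did not pass here, nor did EPHA5 (-0.56, SE 0.18, adjusted p = 0.167). In A549, limma called 0 of 3 members (1 at an unadjusted p under 0.05, GOLM2), beside 9.48% of all genes called lower. The replicate numbers were taken from the data as pairs of these A549 libraries too. With the replicate block HIPK2 (-0.79, SE 0.25, adjusted p = 0.0325) and GOLM2 (-0.43, SE 0.12, adjusted p = 0.0194) were called lower, beside 4411 of all genes called in place of 2465.

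**Figure D3:**
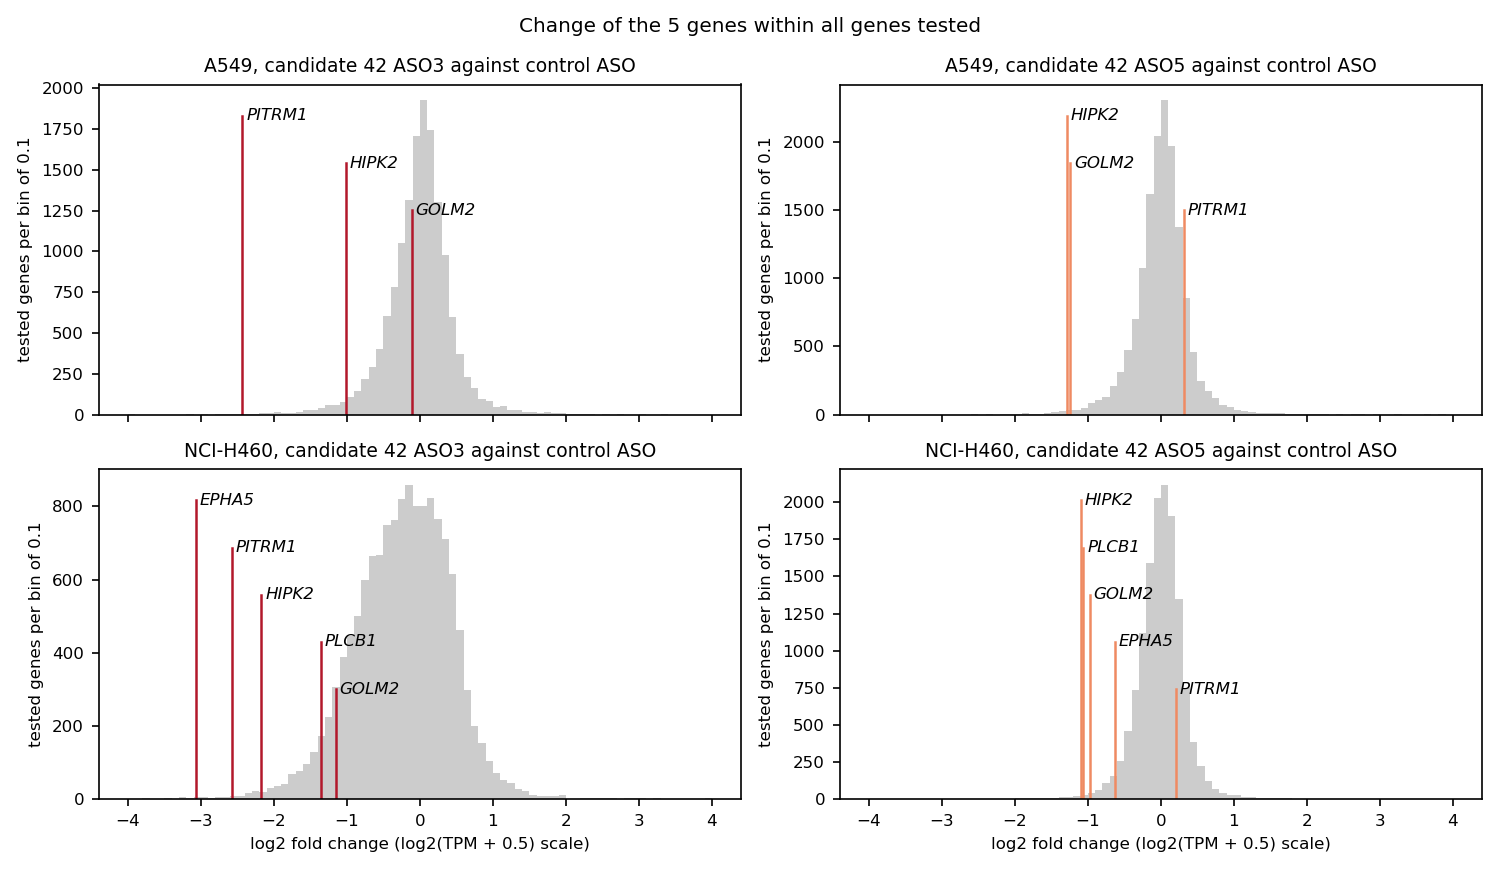
Number of tested genes per bin of log2 fold change (grey bars, bins of 0.1 on the log2(TPM + 0.5) scale) for candidate 42 ASO3 (left) and ASO5 (right) against control ASO, in A549 (top) and NCI-H460 (bottom), with the 5 genes marked by lines whose heights carry no value. The ASO3 spread is wider in NCI-H460, where the median of all genes is -0.20 and GOLM2 (-1.15) lies within the flank, while PITRM1 is far out with ASO3 in both lines and on the upper side with ASO5.

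The depth of the NCI-H460 falls with ASO3 is read against a broad shift, since 32.8% of all genes were called lower there and 13.2% higher, with a median of -0.20. With each library rescaled to a sum of 1e6 that median was -0.34, with 5104 genes called lower and 1128 higher in place of 4513 and 1819. Median-of-ratios scaling centres the libraries by design. Under it the median was 0.01, with 3156 genes called lower and 3259 higher. The 5 members were then at -2.37 (PITRM1), -2.90 (EPHA5), -1.96 (HIPK2), -1.13 (PLCB1) and -0.93 (GOLM2). In A549 the median over all genes was 0.02 and 6.63% were called lower, and PITRM1, HIPK2 and GOLM2 stood at -2.44, -1.02 and -0.12 under that scaling.

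The lines were compared in the 3 ASO groups that the choice had not used (candidate 42 ASO5, candidate 240 ASO1 and candidate 240 ASO3), in a model of all 25 libraries. EPHA5 and PLCB1 entered that model only through NCI-H460, so their A549 minus NCI-H460 differences of -3.74 (SE 0.12) and -3.39 (SE 0.13) are given with no test. Of the 3 members above the limit in both lines, HIPK2 was called lower in A549 (-0.70, SE 0.21, adjusted p = 0.0057). Over all 14769 genes 25.5% were called lower in A549 and 47.1% higher. PITRM1 (0.04, SE 0.10) and GOLM2 (0.16, SE 0.11) did not differ beyond the test (adjusted p = 0.744 and 0.227). The median over all genes was 0.22, and -0.02 under median-of-ratios scaling, where 5289 genes were called lower and 5230 higher in place of 3773 and 6951. Under that scaling PITRM1 and GOLM2 turned to -0.21 and -0.09, neither of them called.

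The difference of the lines in response to an ASO was tested for the same 3 members. For candidate 42 ASO5 it passed for 0 of 3 (5 of 14769 genes, 0.0339%, with 968 at an unadjusted p under 0.05), and GOLM2, called in both lines, had a difference of -0.27 (SE 0.28, adjusted p = 0.945). For candidate 240 ASO1 it passed for 0 of 3 and 0% of genes (410 at an unadjusted p under 0.05), and for candidate 240 ASO3 for 0 of 3, beside 1.21% of all genes (1632 at an unadjusted p under 0.05). PLCB1, under the limit in A549, had a difference of 1.59 (SE 0.32) for candidate 240 ASO3, given with no test: the change was 0.26 in A549, where levels are close to the pseudocount, and -1.33 in NCI-H460, against the controls with which the gene was chosen. The line differences in the ASO3 response, which the choice used, were 0.16 (PITRM1), 2.84 (EPHA5), 1.16 (HIPK2), 1.36 (PLCB1) and 1.04 (GOLM2).

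For candidate 42 ASO3 in A549, the authors' deposited log2 fold changes were -2.49 (PITRM1), -1.15 (HIPK2) and -0.11 (GOLM2). In NCI-H460 they were -2.59, -3.54, -2.22, -1.33 and -1.10 for PITRM1, EPHA5, HIPK2, PLCB1 and GOLM2. These ASO3 values are given without their q, since the genes were chosen on this contrast. For ASO5 in A549 the authors' deposited table has HIPK2 at -1.46 (q = 0.0389), GOLM2 at -1.29 (q = 0.00896) and PITRM1 at 0.32 (q = 0.049), each under a q of 0.05. For ASO5 in NCI-H460 the authors' deposited table has HIPK2, PLCB1 and GOLM2 at -1.14, -1.11 and -1.02, with a q of 0.0596 for each. EPHA5 was at -0.67 there (q = 0.0772). For candidate 240 ASO3 in NCI-H460 the authors' values were PLCB1 -1.35 (q = 0.0301), HIPK2 -0.78 (q = 0.0301), EPHA5 -0.75 (q = 0.0394) and GOLM2 -0.65 (q = 0.0369). Each of these is under a q of 0.05, while PITRM1 was at 0.07 (q = 0.272). In A549 the authors' q with candidate 240 ASO3 was 0.156 for PITRM1, 0.261 for HIPK2 and 0.166 for GOLM2.

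Genes of the same family or route as each member were read from 5 lists, of which the tested part is given. Over all genes, limma called 6.63% lower and 3.43% higher with ASO3 in A549, and 32.8% and 13.2% in NCI-H460 (medians 0.02 and -0.20). With ASO5 these shares were 2.4% and 1.42% in A549, and 0.327% and 0.182% in NCI-H460. The PITRM1 list holds mitochondrial processing and quality proteases and peptidases of its M16 family. With candidate 42 ASO3, 2 of 20 were called lower and 1 higher in A549 (median -0.01), and 7 lower and 3 higher in NCI-H460 (median -0.16). IMMP2L, a subunit of the inner membrane peptidase, was at -2.57 (SE 0.22) in A549 and -1.67 (SE 0.35) in NCI-H460. With candidate 42 ASO5 it was at -1.60 (SE 0.22) and was the 1 of 20 called in A549, while limma called 0 of 20 in NCI-H460 (5 with an unadjusted p under 0.05). IDE, the insulin-degrading M16 peptidase, was called lower in NCI-H460 with ASO3 (-0.81, SE 0.11), as was PMPCB, a subunit of the matrix processing peptidase (-0.31, SE 0.08).

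Of 11 tested Eph receptors and ephrins (21 in the list), 2 were called lower in A549 with candidate 42 ASO3, EPHB2 (-0.79, SE 0.19) and the ligand EFNA5 (-0.48, SE 0.14). In NCI-H460 4 were called lower and 4 higher (median 0.10). The receptor EPHA3 was lowest, at 0.938 TPM with ASO3 and 4.58 TPM with the control ASO (-1.86, SE 0.25), and EFNA5 was at -0.88 (SE 0.11), while the ligands EFNA3 (0.94, SE 0.12) and EFNA4 (0.71, SE 0.12) were higher. With ASO5 limma called 0 of 11 in either line (2 in A549 and 4 in NCI-H460 with an unadjusted p under 0.05).

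Among HIPK2's relatives and partners, 0 of 20 were called lower and 1, the corepressor DAXX (0.29, SE 0.08), higher in A549 with candidate 42 ASO3. In NCI-H460 10 of 18 were called lower and 3 higher (median -0.46). HIPK3 (-1.33, SE 0.24) and HIPK1 (-0.65, SE 0.15), the other kinases of the family measured there, were lower, as were the acetyltransferase genes CREBBP (-1.65, SE 0.21) and EP300 (-1.08, SE 0.23) and the HIPK2 ubiquitin ligase gene SIAH1 (-0.33, SE 0.11). In A549 HIPK1 and HIPK3 stood at 117% and 135% of control with ASO3. With ASO5 limma called 0 of 20 in A549 and 0 of 18 in NCI-H460 (3 and 4 with an unadjusted p under 0.05).

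Of 20 tested genes of the phospholipase C route, 2 were called lower and 2 higher in A549 with candidate 42 ASO3, and 10 lower and 3 higher in NCI-H460 (median -0.53). In NCI-H460 the lower ones included PLCB4 (-1.88, SE 0.21), the Gq subunit gene GNAQ (-1.13, SE 0.18), the inositol trisphosphate receptors ITPR1, ITPR2 and ITPR3 (ITPR3 at -1.10, SE 0.12) and the protein kinase C gene PRKCA (-1.58, SE 0.18). PLCB2 was higher (0.71, SE 0.20), as was DGKA, a kinase that consumes diacylglycerol (0.79, SE 0.17). With ASO5, PLCG1 was called lower (-1.06, SE 0.16) and PLCD3 higher (0.48, SE 0.12) in A549, and limma called 0 of 20 in NCI-H460 (8 with an unadjusted p under 0.05).

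Of 19 tested Golgi genes, 2 were called lower and 1 higher in A549 with candidate 42 ASO3, and 10 lower and 0 higher in NCI-H460 (median -0.54). GOLM1, the relative of GOLM2, was called lower with ASO3 in both lines, at -0.59 (SE 0.09) in A549 and -1.05 (SE 0.08) in NCI-H460, and it averaged 135 and 136 TPM with ASO5, against 133 and 141 TPM with the control ASO. GOLIM4, a Golgi membrane protein gene, was at -1.55 (SE 0.22) in NCI-H460. With ASO5 the golgin gene GOLGA5 was called higher in A549 (0.44, SE 0.11), and limma called 0 of 19 in NCI-H460 (1 with an unadjusted p under 0.05). The NCI-H460 shares of these lists called lower with ASO3 stand beside 32.8% of all genes, and the list medians beside -0.20.

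**Figure D4:**
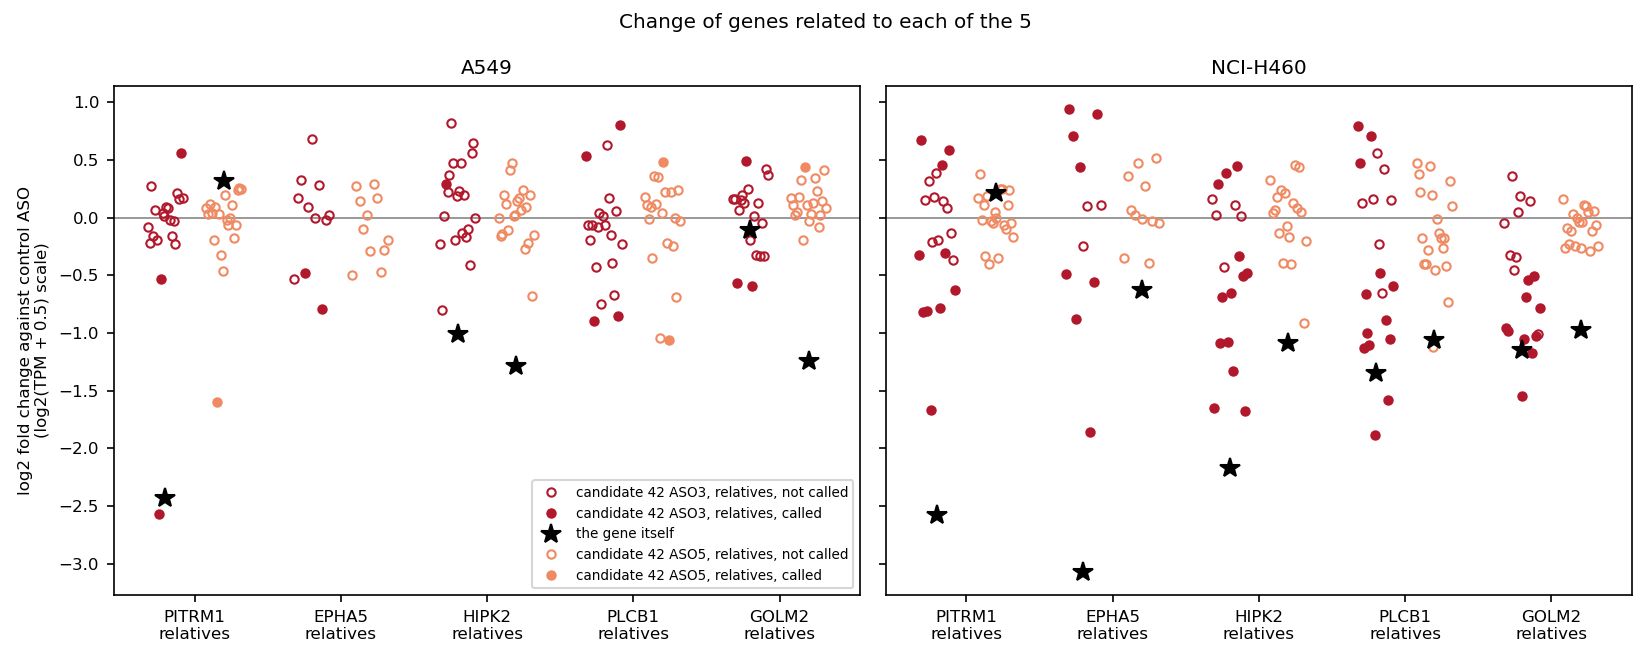
Fitted log2 fold change (log2(TPM + 0.5) scale) of each tested gene of the 5 lists with candidate 42 ASO3 (red) and ASO5 (orange) against control ASO, in A549 (left) and NCI-H460 (right). Filled points were called and open ones not, and stars mark PITRM1, EPHA5, HIPK2, PLCB1 and GOLM2 themselves; with ASO5 in NCI-H460, 0 points of any list are filled.

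The neighbours on the chromosome were set beside the members. PFKP, a phosphofructokinase gene whose end lies 922 bp from PITRM1, stood at 86.1% of control in A549 and 83.3% in NCI-H460 with candidate 42 ASO3 (-0.22, SE 0.11, and -0.26, SE 0.08), where PITRM1 was at 17.7% and 15.9%. The gene beside PITRM1 thus kept most of its level. TBXAS1, the thromboxane synthase gene 244 bp from HIPK2, was at 62.5% and 77.6% of control with ASO3 and at 80.1% and 86.2% with ASO5. PLCB4, the phospholipase gene next to PLCB1 at 183778 bp, was at 53.9% and 20% with ASO3 and at 43.5% and 41.2% with ASO5, and TMX4 on the other side was at 146% and 70.3% with ASO3. PLCB4 overlapped control in A549 with ASO3 (adjusted p = 0.275) and was not called with ASO5 in either line (adjusted p = 0.187 in A549 and 0.0655 in NCI-H460). In NCI-H460 it stood at 71% of control with candidate 240 ASO1 and at 67.2% with candidate 240 ASO3. CTDSPL2, 11871 bp from GOLM2, was at 123% of control in A549 and 33.9% in NCI-H460 with ASO3, and at 110% and 73.9% with ASO5. FRMD5, the neighbour of GOLM2 on the other side, averaged 0.819 TPM with ASO3 and 0.813 TPM with ASO5 in A549, against 1.67 TPM with the control ASO (49.2% and 48.8%). CENPC, the nearer expressed neighbour of EPHA5, lies 1798273 bp away and was at 44.3% of control in NCI-H460 with ASO3.

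The genes whose levels ran most closely with a member were found by Pearson's r of log2(TPM + 0.5) over the libraries of the line with its higher control mean. These libraries share groups and scaling, so r is a description. They include the ASO3 and control libraries that chose the members. The direction of a companion gene over the groups of that line thus follows from the picking, though not its depth. Over the 10 NCI-H460 libraries, PITRM1 ran with RNF4 (0.996), EIF4B (0.994) and the focal adhesion gene VCL (0.992). With candidate 42 ASO3, VCL stood at 16.9% of control in A549 and 11.3% in NCI-H460, and EIF4B, a translation initiation factor gene, at 31.4% and 26.3%, while with ASO5 both stood between 99.4% and 120%. RNF4, with the highest r, fell less with ASO3, to 52.5% in A549 and 40.8% in NCI-H460. EPHA5 ran with SPOCK1 (0.996), CDH19 (0.994) and ERC1 (0.994), and SPOCK1 stood at 12.9% with ASO3 and 69.6% with ASO5 in NCI-H460. HIPK2 ran with CHTF8 (0.990), HEATR5B (0.989) and USP25 (0.988), and PLCB1 with LIPA (0.976), EXOC4 (0.974) and FITM2 (0.974). In NCI-H460 with candidate 42 ASO3, CHTF8 stood at 80% of control, where HIPK2 was at 20.5%. LIPA, the lysosomal acid lipase gene, stood at 61.6% of control in A549 and 55.7% in NCI-H460 with ASO5 (-0.69, SE 0.13, and -0.84, SE 0.13). With candidate 240 ASO3 it stood at 49.5% and 55.2%. Over the 15 A549 libraries, GOLM2 ran with PTPN12 (0.977), MTMR12 (0.973) and CNOT4 (0.961). PTPN12, a tyrosine phosphatase gene, stood like GOLM2 at 93.9% of control with ASO3 and 30.8% with ASO5 in A549, and at 55.7% and 52% in NCI-H460.

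The mature transcripts of the members (GENCODE) were compared with the 2 of AC107959.3, sense against sense, which rests on taking that gene for candidate 42. The longest run of identical bases was 12 nt for PITRM1, HIPK2 and PLCB1, 11 nt for EPHA5 and 10 nt for GOLM2, against a median of 11 nt over 19669 protein-coding genes, of which 31% had a run of at least 12 nt. Introns are not in these transcripts, and the sequences of the ASOs were not used here.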

How the data were processed

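Per the labels' protocols, RNA was purified on columns and libraries were built with a NEBNext Ultra RNA kit. The submitters' processing notes name kallisto, sleuth 0.30 and hg38. Which annotation release was used, and whether counting was stranded, is not stated in the labels. The deposited table holds a normalised signal for every gene name: TPM, which the authors rescaled between libraries. The authors also deposited tables of log2 fold changes and q-values per ASO. TPM keeps no depth, so no counting interval is given.

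All other values were computed here. limma 3.58.1 (R 4.3.3) was fitted to log2(TPM + 0.5), which understates changes of low genes. A gene was tested if it averaged 1 TPM or more over the libraries of the fit: 14740 in A549 (10 residual degrees of freedom), 13774 in NCI-H460 (5) and 14769 in a model of both lines (15). Each line's 5 groups shared 1 trended estimate of the spread. Tests were two-sided, adjusted by Benjamini and Hochberg over all genes of a comparison. The members, lists and contrasts were chosen with earlier results of these data known. Named besides the members are genes of the lists, neighbours on the chromosome and the 3 genes of highest r with each member. Alternatives were 2 other pseudocounts, no filter, 2 other scalings, the compared groups alone, the replicate number as a block, each library left out, and, chosen after seeing the data, A549 replicates 4 and 5 alone and candidate 240 ASO3 against ASO1. Also after seeing the data, tests between the lines were kept to the members above the limit in both.

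Deviations from group means correlated between same-numbered A549 libraries at 0.102 to 0.261 for candidate 42 ASO5 and candidate 240 ASO1, 0.170 to 0.410 for candidate 240 ASO1 and control, 0.283 to 0.564 for candidate 240 ASO3 and control, and 0.244 to 0.479 for the candidate 240 ASOs. All exceed 0.1, and these numbers were taken as pairs from the data, since the labels do not say what they mark. Candidate 42 ASO5 and control (0.021 to 0.321) and candidate 42 ASO3 and control (0.090 to 0.391) fell short of that in at least 1 number, and NCI-H460 has 2 numbers only.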

Additional observations from a re-analysis of the deposited data

How the results depend on the processing

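Of 1129 values of single members under an alternative, 1028 kept their direction and side of the threshold or, where no test was made, moved by less than the spread between libraries; 40 lost a call, 15 gained one, 34 with no test moved by more than that spread and 12 changed sign. The cause was not tested for any of them. Without a filter on low values, more genes enter the adjustment, and 1 member was called for candidate 42 ASO5 minus candidate 240 ASO1 in A549, 0 for candidate 42 ASO5 and 1 for candidate 240 ASO3 in NCI-H460. The shares of all genes called were then 0.914%, 0.24% and 1.02%, in that order. With each library rescaled to a sum of 1e6 the counts were 1 for candidate 42 ASO5 minus candidate 240 ASO1 and 1 for candidate 240 ASO3 in A549, and 1 for candidate 42 ASO5 and 1 for candidate 240 ASO3 in NCI-H460. Over all genes the shares called were 3.67%, 13.3%, 0.307% and 4.19%, in that order. Counting EPHA5 and PLCB1 too, the members between the lines would be 3 in place of 1, beside 72.6% of all genes called. For the line difference in response to candidate 240 ASO3 the count would be 1 in place of 0, beside 1.21%. Both genes entered that model only through NCI-H460, so these added counts are no test of them. With A549 replicates 4 and 5 only, 3 members were called for candidate 42 ASO5 (PITRM1 higher, HIPK2 and GOLM2 lower). For candidate 240 ASO3 and for candidate 240 ASO3 minus candidate 240 ASO1, 2 each were called. Calls rose over all genes too, to 11.8%, 24.8% and 25.2% in these comparisons, in place of 3.82%, 13.8% and 16.7%.

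With the replicate block, 2 members were called for candidate 42 ASO5 in A549 (HIPK2 with adjusted p = 0.00729), where the numbers do not pair the libraries by the correlation, and 1533 of all genes in place of 563. It gave 1 member for candidate 240 ASO3 and 2 for candidate 240 ASO3 minus candidate 240 ASO1 in A549, 1 for candidate 42 ASO5 minus candidate 240 ASO1 in NCI-H460 (PLCB1, adjusted p = 0.0262) and 2 for candidate 42 ASO5 in NCI-H460 (GOLM2 lost, adjusted p = 0.0524), and it changed no other call of a member. In these NCI-H460 comparisons the block called 32 and 50 of all genes, in place of 35 and 70.

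Leaving out 1 library gave 1 to 2 members called for candidate 42 ASO5 and 1 to 2 for candidate 42 ASO5 minus candidate 240 ASO1 in A549, 0 to 0 for candidate 42 ASO5 and 1 to 2 for candidate 240 ASO3 in NCI-H460, and 0 to 1 for candidate 240 ASO3 minus candidate 240 ASO1 in NCI-H460. Signs turned for HIPK2 and GOLM2 with candidate 240 ASO1 in A549 (ranges -0.10 to 0.59 and -0.04 to 0.22), for PITRM1 in NCI-H460 with candidate 240 ASO1 (-0.09 to 0.02) and ASO3 (-0.01 to 0.12, 0.00 without control replicate 2, and -0.04 at sums of 1e6), for PITRM1 between the lines (-0.03 to 0.07), and for HIPK2 in the line difference in response to candidate 42 ASO5 (-0.55 to 0.01) and candidate 240 ASO3 (-0.12 to 0.65, -0.02 without A549 candidate 240 ASO3 replicate 4); none of these had passed the test. Between the lines, median-of-ratios scaling turned PITRM1 to -0.21 and GOLM2 to -0.09. Counts over all genes moved further: candidate 240 ASO3 in NCI-H460 had 76 to 392 genes called without 1 library, against 780.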
